A study of Mus musculus with 7 samples.

Results

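Of 9 Hedgehog pathway genes measured in 2 mouse models of glioblastoma (GBM), *Gli1* alone differed past the threshold, and it was higher in NSCHRas-shp53 than in NPCTKO GBMs. The 9 genes were *Gli1*, *Gli2*, *Gli3*, *Ptch1*, *Smo*, *Hhip*, *Sufu*, *Boc* and *Gas1*. They were found by gene name in a table of raw counts that holds 49492 genes, and all 9 were among the 16091 genes with enough counts to be tested. *Gli3* and *Boc* were also higher in each NSCHRas-shp53 library than in each NPCTKO library, with adjusted p-values just above the threshold. Over all genes tested, 13.1% passed the threshold in either direction, and 16.4% were higher in each NSCHRas-shp53 library than in each NPCTKO library. *Ptch1*, *Smo*, *Sufu*, *Hhip*, *Gli2* and *Gas1* overlapped between the models.

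Hedgehog signalling begins with a secreted ligand (SHH, IHH or DHH) that binds the receptor PTCH1, helped by the co-receptors BOC, CDON and GAS1. Free of ligand, PTCH1 keeps the membrane protein SMO inactive, and the cytoplasmic protein SUFU holds the GLI transcription factors back. With ligand, SMO moves into the primary cilium and GLI2 and GLI3 are freed to act, while without it GLI3 is cut to a repressor. *Gli1*, *Ptch1* and *Hhip* are themselves transcribed when the pathway is active, so GLI1 amplifies the signal and PTCH1 and HHIP dampen it. In the adult mouse brain, neurons make SHH, and astrocytes and neural stem cells of the ventricular-subventricular zone are known to respond to it.

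Bulk RNA-seq libraries came from 4 NPCTKO and 3 NSCHRas-shp53 tumors of C57BL/6 mice aged 3 months, as labelled. The methods keep the *Tbx18*-GFP mice, in which DsRed-marked NPCTKO tumors were made, on a mixed background that is only partly C57BL/6. They do not say which mouse line each library came from. For NPCTKO, neocortical precursors of embryos received Cas9 and guide RNAs against tumor suppressor genes, *Trp53* and *Nf1* among them, by electroporation *in utero*, together with a piggyBac cassette that marks the progeny with EGFP or DsRed. The dissociated tumors were sorted for these EGFP+ or DsRed+ cells before RNA was taken. For NSCHRas-shp53, a lentivirus carrying an shRNA against *Trp53* and a constitutively active human HRAS was placed in the ventricular-subventricular zone of grown mice, and RNA was taken from the tumor without sorting, so host cells are part of it. Loss of p53 function was thus aimed at in all 7 tumors, and no library of normal brain was compared. The model and the preparation changed together and cannot be told apart. Neither the labels nor the methods say if every library had a mouse of its own, so p-values measure the spread between these libraries, which may be partly technical.

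The libraries held 15002873 to 19247326 counts in NPCTKO and 17529054 to 19840860 in NSCHRas-shp53. Levels are given as CPM (counts scaled to library size) after TMM scaling, and 3 counts, taken as a floor that covers counting error only, equal 0.129 to 0.233 CPM. NPCTKO libraries 1 and 2 stood apart from 3 and 4. Across genes, their Spearman correlation between transcript GC content and the deviation from the mean of all libraries was 0.570 and 0.493, against −0.375 and −0.355 in NPCTKO 3 and 4 and −0.285 to −0.160 in NSCHRas-shp53. Genes of tumor-associated macrophages (TAM) summed to 17245 and 21521 CPM in NPCTKO 1 and 2, to 402 and 2716 in NPCTKO 3 and 4, and to 2344 to 6427 in NSCHRas-shp53. Astrocyte markers summed to 230.3 to 709.6 CPM in NPCTKO and to 2894 to 3795 in NSCHRas-shp53, while markers of oligodendrocyte precursor cells (OPC) summed to 2335 to 4998 and to 502 to 913 CPM. Neuron markers (26.7 to 51.3 against 376 to 637 CPM), mural cell markers (26.1 to 37.4 against 284 to 436 CPM), endothelial markers (28.6 to 272 against 518 to 967 CPM), fibroblast markers (37.0 to 109 against 255 to 658 CPM) and ependymal markers (6.30 to 18.4 against 22.6 to 55.1 CPM) were lower in each NPCTKO library than in each NSCHRas-shp53 library. Oligodendrocyte markers overlapped (968 to 6373 against 1120 to 8237 CPM), and *Gfap*, *Gpr17*, *Nefl* and *P2ry12* were at 0 counts in all libraries of this table. Proliferation genes summed to 306 to 961 CPM in NPCTKO and to 142 to 183 in NSCHRas-shp53. By edgeR, 7 of 9 astrocyte, 7 of 7 neuron, 5 of 9 mural, 3 of 8 endothelial, 3 of 5 fibroblast and 1 of 3 ependymal markers tested were higher in NSCHRas-shp53, 4 of 7 OPC markers and 3 of 6 proliferation genes were lower, and 0 of 10 TAM and 0 of 8 oligodendrocyte markers were called, also at an unadjusted p under 0.05. In such bulk RNA, fewer cells of a type and less RNA per cell cannot be told apart.

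The promoters of the members were searched for the binding motif of the GLI factors, since *Gli1*, *Gli2* and *Gli3* are the members that bind DNA. RefSeq promoter sequences (GRCm38.p6) were matched for 7 of the 9 members, all but *Gli1* and *Boc*. The full motif GACCACCCA, read on both strands in the 250 bases before the start site, was found in 0.225% of 32851 promoters and in 0 of the 7. Its core ACCACCC, which lies within the full motif, was found in 3.92% of all promoters and in 1 of the 7, that of *Gli2*, where it reads GGGTGGT on the strand of the gene and begins 205 bases before the start. The *Gli2* promoter is printed with this match in capitals, and the *Gli3* promoter is printed beside it as that of the family member with the larger difference between the models and no match.
Gli2, chr1:119053620-119053869, minus strand: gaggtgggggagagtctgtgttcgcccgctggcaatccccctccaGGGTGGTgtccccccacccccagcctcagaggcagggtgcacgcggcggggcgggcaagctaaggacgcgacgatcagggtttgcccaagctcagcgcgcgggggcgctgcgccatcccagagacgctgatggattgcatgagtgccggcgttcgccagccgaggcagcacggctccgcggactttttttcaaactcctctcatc
Gli3, chr13:15463473-15463722, plus strand: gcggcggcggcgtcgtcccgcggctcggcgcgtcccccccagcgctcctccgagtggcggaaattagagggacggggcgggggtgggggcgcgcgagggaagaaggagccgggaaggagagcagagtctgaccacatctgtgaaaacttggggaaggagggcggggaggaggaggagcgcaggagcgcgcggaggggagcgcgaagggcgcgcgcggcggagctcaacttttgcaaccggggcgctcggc
Both stretches are rich in G and C, with 67.2% in *Gli2* and 72.8% in *Gli3*. The *Gli2* stretch abuts the gene as the count table places it, and the *Gli3* stretch lies within it, since RefSeq starts that gene further downstream. A match is a description of the letters and not a bound site.

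*Gli1*, on chromosome 10 of mm10 from 127329889 to 127341589 on the minus strand, encodes the activating GLI factor whose transcript is a standard readout of the pathway. It was counted 11, 2, 9 and 7 times in NPCTKO libraries 1 to 4 and 31, 62 and 63 times in NSCHRas-shp53 libraries 1 to 3. These counts equal 0.737, 0.156, 0.468 and 0.423 CPM in NPCTKO and 1.69, 3.14 and 2.72 CPM in NSCHRas-shp53. Each NSCHRas-shp53 library was above each NPCTKO library, and the count in NPCTKO 2 was under the floor of 3. The mean was 0.446 ± 0.238 CPM (SD, n = 4) in NPCTKO and 2.52 ± 0.745 CPM (SD, n = 3) in NSCHRas-shp53. *Gli1* was thus 5.54-fold higher in NSCHRas-shp53, a log2 fold change of 2.47 ± 0.58 (SE; 95% interval 1.15 to 3.79; edgeR quasi-likelihood test, adjusted p = 0.0295). The call was lost when NPCTKO 4 (adjusted p = 0.058), NSCHRas-shp53 1 (0.057), NSCHRas-shp53 2 (0.12) or NSCHRas-shp53 3 (0.12) was left out, and over 18 alternatives the adjusted p ran from 0.00048 to 0.12. It held without NPCTKO 1 and 2 (log2 fold change 2.51, adjusted p = 0.034) and without NPCTKO 3 and 4 (2.44, adjusted p = 0.028). *Arhgap9*, on the opposite strand, overlaps *Gli1* by 55 bases and was read at 804, 750, 28 and 207 counts in NPCTKO and 302, 242 and 433 in NSCHRas-shp53. The libraries do not keep the strand, and the part of its reads in the counts of *Gli1* was not tested.

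*Gli1* was 1 of 9 members called by edgeR at an adjusted p under 0.05, and 0 were lower, also at an unadjusted p under 0.05. DESeq2, and limma, which tested 8 of them, likewise called 0 as lower at an adjusted p under 0.05. By limma, *Hhip* was lower at an unadjusted p of 0.0396 (adjusted p = 0.141). Over all genes tested, 13.1% were called, 7.77% as higher and 5.28% as lower in NSCHRas-shp53, so the share of members called was near that of all genes. Of the 9 members, 3 had each NSCHRas-shp53 library above each NPCTKO library, which 16.4% of all genes tested had, and 0 had the reverse, which 15.0% had. The median log2 fold change of the members was 0.18, beside −0.10 over all genes tested.

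*Gli3*, on chromosome 13 from 15463235 to 15730026 on the plus strand, encodes the GLI factor that acts mainly as a repressor once it is cut. It was read at 1.41, 5.52, 6.56 and 8.04 CPM in NPCTKO and at 15.1, 23.4 and 24.5 CPM in NSCHRas-shp53. The models did not overlap, and NPCTKO 1 was the lowest library by far. The log2 fold change was 1.96 ± 0.55 (SE; 95% interval 0.70 to 3.22), from 5.38 ± 2.84 CPM (SD, n = 4) to 21.0 ± 5.13 CPM (SD, n = 3), and *Gli3* was not called (edgeR adjusted p = 0.0511). It was called in 8 of 20 alternatives, whose adjusted p ran from 0.0049 to 0.18 and whose log2 fold change ran from 1.01 to 2.59. Leaving out NPCTKO 1 alone was one of these (log2 fold change 1.68, adjusted p = 0.041). *Gm6556*, on the opposite strand, overlaps *Gli3* by 502 bases and was read at 2 to 9 counts in NPCTKO and 15 to 33 in NSCHRas-shp53, and its part in the counts of *Gli3* was likewise not tested.

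*Gli2*, on chromosome 1 from 118834132 to 119053619 on the minus strand, encodes the main activator at the start of the response. It was read at 9.11, 4.20, 1.87 and 5.86 CPM in NPCTKO and at 7.75, 12.3 and 11.7 CPM in NSCHRas-shp53. NPCTKO 1 lay above NSCHRas-shp53 1, so the models overlapped. *Gli2* was not called, with a log2 fold change of 1.01 ± 0.54 (SE; 95% interval −0.22 to 2.24; edgeR adjusted p = 0.245), nor was it in any of 20 alternatives. The libraries with the lowest *Gli2* and *Gli3* were not the same, since *Gli2* was lowest in NPCTKO 3 and *Gli3* in NPCTKO 1.

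**Figure D1:**
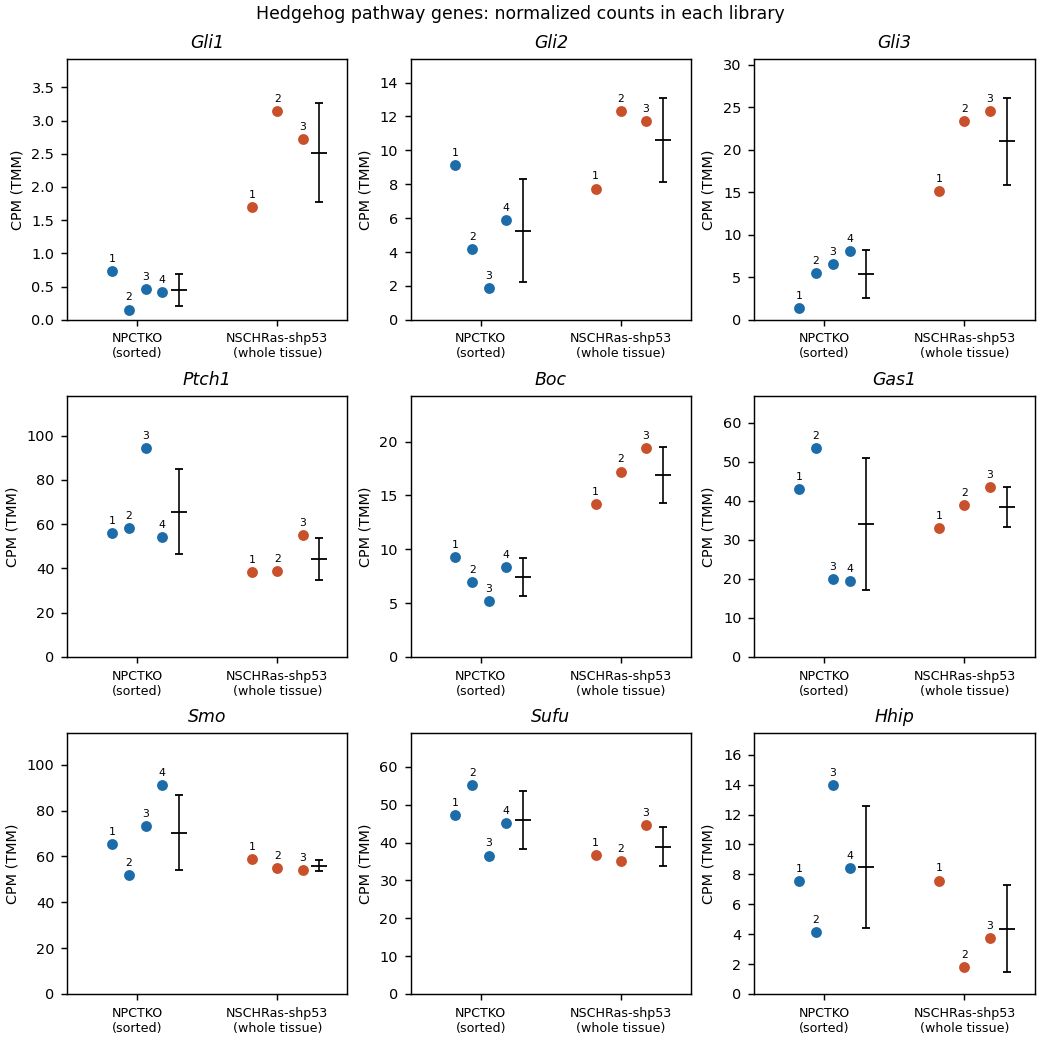
Normalized counts (CPM after TMM scaling, vertical axis from 0) of the 9 Hedgehog pathway genes, with a point for each library, numbered by replicate, and the mean with its SD as a bar beside each group (4 NPCTKO, 3 NSCHRas-shp53). *Gli1*, *Gli3* and *Boc* show each NSCHRas-shp53 library above each NPCTKO library, while the other 6 genes overlap.

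Per length, the GLI factors were among the lowest members, and *Gli3* was the most abundant of them in 6 of 7 libraries. In FPKM (fragments per length of transcript, scaled to library depth), *Gli1*, *Gli2* and *Gli3* together came to 1.28, 1.11, 1.07 and 1.67 in NPCTKO and to 2.84, 4.58 and 4.72 in NSCHRas-shp53. *Gli3* made up 55.2, 69.7 and 56.9% of that sum in NPCTKO 2, 3 and 4 and 54.7, 52.5 and 58.0% in NSCHRas-shp53, but 11.6% in NPCTKO 1, where *Gli2* was the largest of the 3. The share in NPCTKO 1 thus stood apart from the other 6 libraries, which spanned both models. These shares are descriptions of transcript levels and do not read the activator and repressor forms of the proteins.

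*Ptch1*, on chromosome 13 from 63508328 to 63573598 on the minus strand, encodes the receptor of the ligands and is a transcriptional target of the pathway. It was read at 56.0, 58.3, 94.3 and 54.2 CPM in NPCTKO and at 38.4, 38.9 and 55.2 CPM in NSCHRas-shp53. NPCTKO 3 was far above the other libraries, and NSCHRas-shp53 3 lay above NPCTKO 4. *Ptch1* was not called, with a log2 fold change of −0.57 ± 0.31 (SE; 95% interval −1.28 to 0.13; edgeR adjusted p = 0.250), nor was it in any of 20 alternatives. An increase of *Ptch1* of the size fitted for *Gli1* lies outside this interval.

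*Gli1* and *Ptch1*, both targets of the pathway, stood in a different proportion in each model. In FPKM, *Ptch1* was 75.0, 86.8, 116 and 76.3 times the level of *Gli1* in NPCTKO and 11.7, 6.19 and 10.5 times in NSCHRas-shp53. In CPM the ratio of *Ptch1* to *Gli1* was 75.9, 375, 201 and 128 in NPCTKO and 22.7, 12.4 and 20.3 in NSCHRas-shp53. These NPCTKO ratios divide by 11, 2, 9 and 7 counts of *Gli1*, so the 375 rests on a count under the floor of 3. The ratio draws on the same *Gli1* counts tested above and was not tested by itself. On both scales the ratio in each NPCTKO library was above that in each NSCHRas-shp53 library. The scales differed within NPCTKO, where *Gli1* was nearly level in FPKM (0.0881 to 0.104) but not in CPM (0.156 to 0.737), so the ratios among NPCTKO libraries cannot be ranked. *Hhip*, the third target and a decoy that binds the ligands, lies on chromosome 8 from 79965851 to 80058006 on the minus strand. It was read at 7.57, 4.12, 14.0 and 8.40 CPM in NPCTKO and at 7.59, 1.82 and 3.71 CPM in NSCHRas-shp53. NSCHRas-shp53 1 lay within the range of NPCTKO, and the other NSCHRas-shp53 libraries lay below it. *Hhip* was not called, with a log2 fold change of −0.96 ± 0.61 (SE; 95% interval −2.35 to 0.42; edgeR adjusted p = 0.324), nor in any of 20 alternatives. Of the 3 targets, *Gli1* was thus higher in NSCHRas-shp53 and the fitted changes of *Ptch1* and *Hhip* were below 0 without passing the test.

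*Boc*, on chromosome 16 from 44485049 to 44558897 on the minus strand, encodes a cell surface co-receptor of the immunoglobulin family. It was read at 9.31, 6.92, 5.21 and 8.34 CPM in NPCTKO and at 14.2, 17.2 and 19.4 CPM in NSCHRas-shp53. The models did not overlap, and the spread within each was small. The log2 fold change was 1.18 ± 0.35 (SE; 95% interval 0.39 to 1.98), from 7.45 ± 1.79 CPM (SD, n = 4) to 16.9 ± 2.61 CPM (SD, n = 3), and it was not called (edgeR adjusted p = 0.0581). *Boc* was called in 8 of 20 alternatives, whose adjusted p ran from 0.0025 to 0.22 and whose log2 fold change ran from 0.96 to 1.70. On the deposited FPKM values, *Boc* (adjusted p = 0.0266) and *Gli3* (adjusted p = 0.0349) were both called as higher in NSCHRas-shp53 by limma, which called 9.10% of the genes it tested as higher and 6.72% as lower.

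*Gas1*, on chromosome 13 from 60174405 to 60177365 on the minus strand, encodes a co-receptor anchored to the membrane by a lipid. Its transcript of 2961 bases fills the gene, which has no intron. It was read at 43.1, 53.5, 20.0 and 19.6 CPM in NPCTKO and at 33.1, 38.9 and 43.5 CPM in NSCHRas-shp53. NPCTKO 2 lay above the NSCHRas-shp53 range, NPCTKO 1 just under its top, and NPCTKO 3 and 4 below it. The log2 fold change over all libraries was 0.18 ± 0.42 (SE; 95% interval −0.77 to 1.13; edgeR adjusted p = 0.816). It was 0.99 (adjusted p = 0.042) without NPCTKO 1 and 2 and −0.34 (adjusted p = 0.22) without NPCTKO 3 and 4, in a range of adjusted p from 0.042 to 0.99 over 20 alternatives. The GC content of *Gas1* was 58.4%, at percentile 91.7 of the genes tested, and NPCTKO 1 and 2 are the libraries that leaned to GC-rich transcripts. *Gli1* (percentile 93.5), *Smo* (89.8), *Gli2* (89.0), *Boc* (82.4) and *Sufu* (81.7) were also rich in GC. Of these, *Sufu* was higher in NPCTKO 1 and 2 (47.3 and 55.1 CPM) than in NPCTKO 3 and 4 (36.6 and 45.2 CPM), as *Gas1* was. *Smo* was lower in NPCTKO 1 and 2 than in NPCTKO 3 and 4, and *Gli1*, *Gli2* and *Boc* did not split that way or the other. The part of GC content in the split of *Gas1* was not tested by itself, and with offsets for it the log2 fold change was 0.64 (adjusted p = 0.099).

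*Smo*, on chromosome 6 from 29735503 to 29761365 on the plus strand, and *Sufu*, on chromosome 19 from 46396896 to 46488804 on the plus strand, were the least variable members. *Smo*, the signal transducer, was read at 65.5, 52.0, 73.1 and 91.0 CPM in NPCTKO and at 58.8, 54.9 and 54.1 CPM in NSCHRas-shp53. *Sufu*, the inhibitor that binds GLI factors, was read at 47.3, 55.1, 36.6 and 45.2 CPM in NPCTKO and at 36.6, 35.2 and 44.8 CPM in NSCHRas-shp53. Both overlapped between the models, and the highest library was 1.75 times the lowest for *Smo* and 1.57 times for *Sufu*, against 20.2 times for *Gli1* and 17.4 times for *Gli3*. The log2 fold change of *Smo* was −0.33 ± 0.27 (SE; 95% interval −0.95 to 0.29; edgeR adjusted p = 0.446). That of *Sufu* was −0.25 ± 0.26 (SE; 95% interval −0.85 to 0.36; edgeR adjusted p = 0.568). A change of more than 2-fold either way lies outside both intervals.

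**Figure D2:**
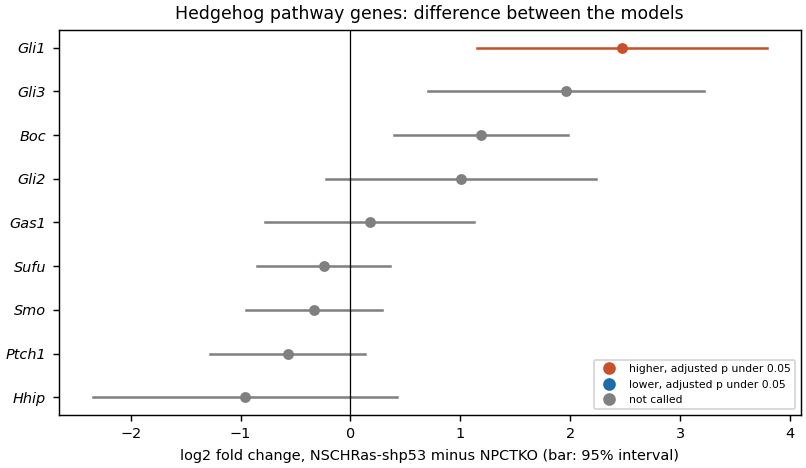
Log2 fold change of each member (horizontal axis, NSCHRas-shp53 minus NPCTKO, edgeR) with its 95% interval as a bar, ordered by size, where 0 is no difference. *Gli1* (2.47) is coloured as higher, and *Gli3* (1.96) and *Boc* (1.18) are grey although their intervals lie above 0, since their adjusted p-values were 0.0511 and 0.0581.

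The order of the members by level per length separated 4 genes from the other 5. Averaged over the 7 libraries, the FPKM was 14.8 for *Smo*, 11.7 for *Gas1*, 7.27 for *Ptch1* and 6.79 for *Sufu*. It was 2.00 for *Boc*, 1.31 for *Gli3*, 1.27 for *Hhip*, 0.830 for *Gli2* and 0.330 for *Gli1*. No library had any of the first 4 below 4.89 FPKM or any of the other 5 above 3.79 FPKM. Within both sets, neighbours in this order overlapped over the libraries, as *Smo* (10.3 to 20.5) and *Gas1* (6.40 to 16.3), *Ptch1* (4.89 to 12.1) and *Sufu* (5.08 to 9.21), or *Gli3* (0.148 to 2.74) and *Hhip* (0.236 to 2.64) did.

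**Figure D3:**
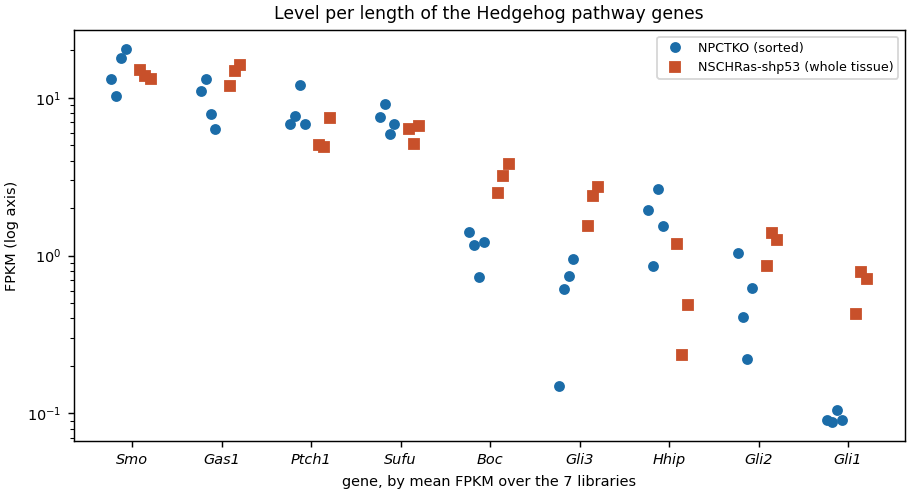
Level per length (FPKM, log axis) of the 9 members in each library, ordered by their mean over the 7 libraries, with circles for NPCTKO and squares for NSCHRas-shp53. *Smo*, *Gas1*, *Ptch1* and *Sufu* stay at or above 4.89 FPKM in all libraries and the other 5 genes at or below 3.79 FPKM, and the squares lie above the circles for *Boc*, *Gli3* and *Gli1*.

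The members fell into patterns that followed no single role. Measured as the root mean square difference of mean-centred log2(CPM + 1) values over the 7 libraries, *Gli1* was nearest to *Boc* (0.247), *Gli2* was also nearest to *Boc* (0.311), and *Smo* and *Sufu* were nearest to each other (0.357). *Hhip* and *Gli3* were the farthest apart (1.63). For this measure the low levels of *Gli1* compress its differences. Among 10868 genes with a mean of at least 10 CPM, those nearest to *Gli1* were *Pdk1* (0.124), which encodes a kinase that inhibits pyruvate dehydrogenase, the pseudogene *Pisd-ps2* (0.134) and *Tead3* (0.168), which encodes a partner of the Hippo pathway coactivators. *Pdk1* was read at 16.7 to 24.6 CPM in NPCTKO and at 49.4 to 65.0 CPM in NSCHRas-shp53. Those nearest to *Ptch1* were *Astn1* (0.124), which encodes a neuronal adhesion protein, *Rnf144a* (0.127) and *Mrs2* (0.133), and each of them was highest in NPCTKO 3, as *Ptch1* was. Those nearest to *Hhip* were *Dusp16* (0.230), *Kit* (0.241), which encodes a receptor tyrosine kinase, and *Clic5* (0.249). These distances are descriptions over 7 libraries.

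Of the genes that make or release the ligands, 3 of 9 tested rose in NSCHRas-shp53 and 0 fell, beside 7.77 and 5.28% of all genes tested. Their median log2 fold change was 0.87, beside −0.10 over all genes tested. *Dhh*, which encodes the desert hedgehog ligand, was read at 15.1, 15.8, 8.33 and 25.7 CPM in NPCTKO and at 64.8, 72.9 and 40.6 CPM in NSCHRas-shp53. It was higher in each NSCHRas-shp53 library, with a log2 fold change of 1.87 ± 0.41 (SE; edgeR adjusted p = 0.0234). The call of *Dhh* was lost in 5 of 20 alternatives, whose adjusted p ran from 0.00046 to 0.10. *Shh*, which encodes sonic hedgehog, was read at 0.134, 1.24, 0.573 and 0.302 CPM in NPCTKO and at 0.382, 8.10 and 5.70 CPM in NSCHRas-shp53. NSCHRas-shp53 1 lay within the NPCTKO range, and the other NSCHRas-shp53 libraries lay far above it. The log2 fold change of *Shh* was 3.07 ± 1.01 (SE; edgeR adjusted p = 0.0824), and without NSCHRas-shp53 1 it was 3.65 (adjusted p = 0.048, in a range of 0.012 to 0.26 over 17 alternatives). *Ihh*, the Indian hedgehog gene, was at 0.260 to 0.725 CPM in NPCTKO and at 0.273 to 0.608 in NSCHRas-shp53, which is 4 to 13 counts a library (edgeR adjusted p = 0.952). Per length, *Dhh* was the highest of the 3 ligands in all 7 libraries, at 2.98 to 10.3 FPKM in NPCTKO and at 18.4 to 34.1 FPKM in NSCHRas-shp53.

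*Disp2*, a relative of the ligand exporter gene *Disp1*, was read at 14.3, 29.2, 48.1 and 64.3 CPM in NPCTKO and at 118, 188 and 275 CPM in NSCHRas-shp53 (log2 fold change 2.32 ± 0.52, SE; edgeR adjusted p = 0.0260). *Disp1* itself was at 13.0 to 22.6 CPM in NPCTKO and at 15.8 to 23.1 CPM in NSCHRas-shp53, with a log2 fold change of 0.02 (edgeR adjusted p = 0.974). *Scube3*, which encodes a secreted protein of a family that helps to release the ligands, was read at 2.61, 3.19, 2.24 and 1.57 CPM in NPCTKO and at 12.2, 8.76 and 8.29 CPM in NSCHRas-shp53 (log2 fold change 2.02 ± 0.41, SE; edgeR adjusted p = 0.0187). *Disp2* and *Scube3*, like *Dhh*, did not overlap between the models. Of all genes tested, 16.4% likewise had each NSCHRas-shp53 library above each NPCTKO library. *Disp2* lost its call in 3 of 20 alternatives and *Scube3* in 5 of 17. Without NSCHRas-shp53 2, or without NSCHRas-shp53 3, 0 genes that make or release the ligands were called as higher. The markers of neurons, astrocytes and vessel cells given above were higher in the same libraries, and their part in these differences and in that of *Gli1* was not tested.

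**Figure D4:**
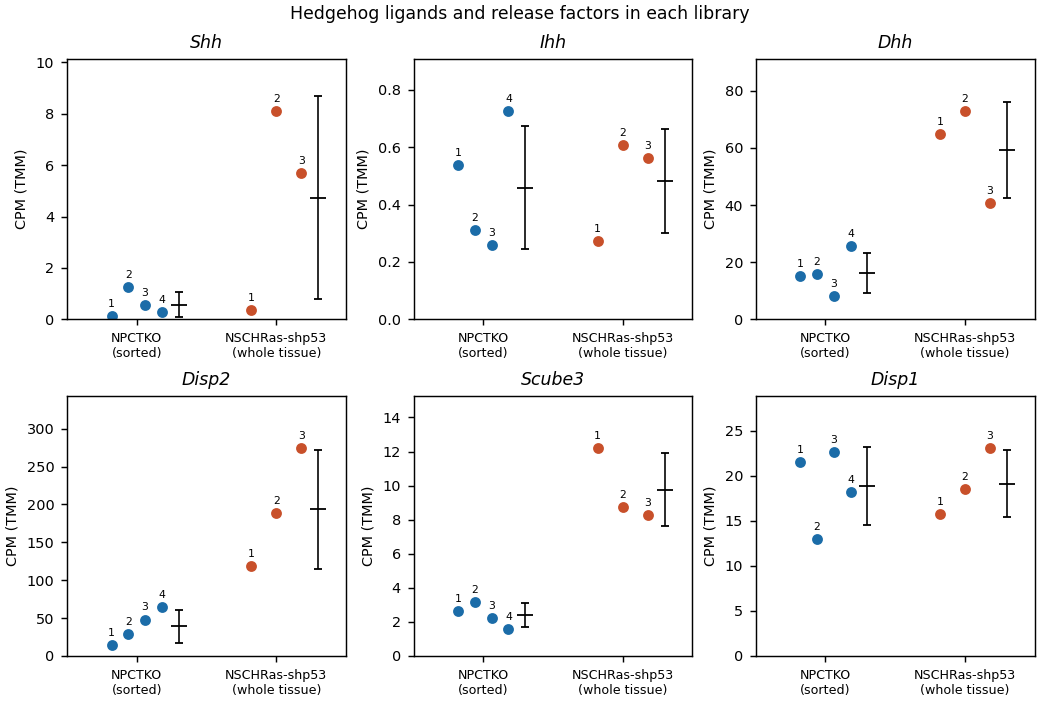
Normalized counts (CPM after TMM scaling, vertical axis from 0) of the 3 Hedgehog ligands and of *Disp2*, *Scube3* and *Disp1*, with a point for each library, numbered by replicate, and the mean with its SD as a bar beside each group. *Dhh*, *Disp2* and *Scube3* show each NSCHRas-shp53 library above each NPCTKO library, while *Shh* was at 0.382 CPM in NSCHRas-shp53 1 and at 8.10 and 5.70 CPM in the other NSCHRas-shp53 libraries.

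The genes of further receptor components, *Cdon*, *Lrp2* and *Gpc3*, gave 0 calls of 3 tested by edgeR, with unadjusted p-values of 0.0925 to 0.974, and 0 by DESeq2. Limma tested 2 of them and called 0. Over all genes tested, edgeR called 13.1%, and 0 calls of 3 do not depart from that share. *Cdon*, the co-receptor gene related to *Boc*, was at 1.94 to 12.3 CPM in NPCTKO and at 3.55 to 9.41 CPM in NSCHRas-shp53, a log2 fold change of 0.02 ± 0.73 (SE). Its wide error leaves changes of several fold in either direction within the interval (−1.65 to 1.70). Genes that build or serve the primary cilium, where SMO acts, gave 0 calls of 15 tested by edgeR, beside 13.1% of all genes tested. Their median log2 fold change was 0.01, and 0 calls in a list this small do not show that the genes were unchanged. *Arl13b*, which encodes a ciliary GTPase, was the 1 gene of these with an unadjusted p below the threshold of 0.05 by edgeR (log2 fold change 1.20, adjusted p = 0.103), and DESeq2 called 1 of the 15 and limma 0 of the 13 it tested.

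Of 20 genes tested that carry the signal between SMO and the GLI factors, 2 (10%) rose and 3 (15%) fell in NSCHRas-shp53. The shares over all genes tested were 7.77 and 5.28%. *Evc* and *Evc2*, whose products sit at the base of the cilium and bind SMO, fell by 1.55 (edgeR adjusted p = 0.0163) and by 1.06 (adjusted p = 0.0479) on the log2 scale. *Kif7*, which encodes a kinesin that organizes the tip of the cilium, was read at 38.8, 31.0, 24.6 and 34.0 CPM in NPCTKO and at 7.26, 15.7 and 8.12 CPM in NSCHRas-shp53 and fell by 1.63 on the log2 scale (edgeR adjusted p = 0.0296). *Spop*, which encodes the ubiquitin ligase adaptor for GLI2 and GLI3, rose by 1.09 (edgeR adjusted p = 0.0369), and *Prkacb*, a catalytic subunit of the protein kinase A that phosphorylates GLI factors, rose by 1.02 (adjusted p = 0.0345) on the log2 scale. All 5 were without overlap between the models, as were 16.4% (NSCHRas-shp53 above) and 15.0% (below) of all genes tested. The 5 were picked by their calls between the same libraries, so this adds no support. Their calls varied in how far they held. *Evc2* lost its call in 14 of 20 alternatives, among them GC content offsets (adjusted p = 0.18) and limma on log2(FPKM + 1) (0.088), in a range of 0.0040 to 0.44. *Kif7* lost it in 13 of 20, among them GC content offsets (adjusted p = 0.057) and limma (0.059), in a range of 0.00051 to 0.14. *Evc* lost it in 5 of 20, and *Spop* and *Prkacb* in 9 of 20 each. *Efcab7*, whose product tethers the EVC proteins, was at 0 counts in all libraries and was read by FPKM, where limma did not call it (adjusted p = 0.882).

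Of 13 candidate GLI targets tested other than the members, 3 (23.1%) rose and 4 (30.8%) fell, beside 7.77 and 5.28% of all genes tested. The 3 that rose were *Ccnd2*, a cyclin gene (log2 fold change 1.42, edgeR adjusted p = 0.0453), *Bcl2*, which encodes an inhibitor of apoptosis (1.61, adjusted p = 0.0145), and *Igf2*, which encodes a growth factor (1.87, adjusted p = 0.0246). The 4 that fell were *Foxm1*, *Nkx2-2*, *Mycn* and *Bmp4*. *Foxm1*, which encodes a transcription factor of dividing cells, was read at 78.7, 55.8, 106 and 89.4 CPM in NPCTKO and at 16.3, 18.9 and 15.1 CPM in NSCHRas-shp53 and fell by 2.30 on the log2 scale (edgeR adjusted p = 0.0054). The proliferation genes given above were lower in the same libraries, and their part in the fall of *Foxm1* was not tested. *Nkx2-2*, which encodes a factor of ventral neural progenitors and of the oligodendrocyte lineage, was read at 31.0, 40.5, 33.5 and 17.9 CPM in NPCTKO and at 7.69, 8.10 and 2.98 CPM in NSCHRas-shp53 and fell by 2.30 (adjusted p = 0.0198), in the libraries in which OPC markers were lower. *Mycn*, a proto-oncogene of neural precursors, fell by 2.25 (edgeR adjusted p = 0.0438), and *Bmp4*, which encodes a secreted ligand of the BMP pathway, fell by 2.13 (adjusted p = 0.0205). *Foxf1*, which had 0 counts, was at 15.7, 15.9, 5.52 and 7.82 FPKM in NPCTKO and at 3.13, 1.15 and 0.866 FPKM in NSCHRas-shp53 and was lower (limma on log2(FPKM + 1), adjusted p = 0.0150). Its relative *Foxf2* was called as higher in the same limma fit, at 0.260 to 2.90 FPKM in NPCTKO and 6.58 to 10.2 FPKM in NSCHRas-shp53 (log2 difference 1.91, adjusted p = 0.0162), and was not called by edgeR (adjusted p = 0.139). Of the candidate targets called by edgeR, *Mycn* lost its call in 13 of 20 alternatives, *Ccnd2* in 10 and *Bcl2* in 7, *Igf2*, *Nkx2-2* and *Bmp4* in 4 each, and *Foxm1* in 1 of 17. The genes often read as targets of the pathway thus changed in both directions.

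**Figure D5:**
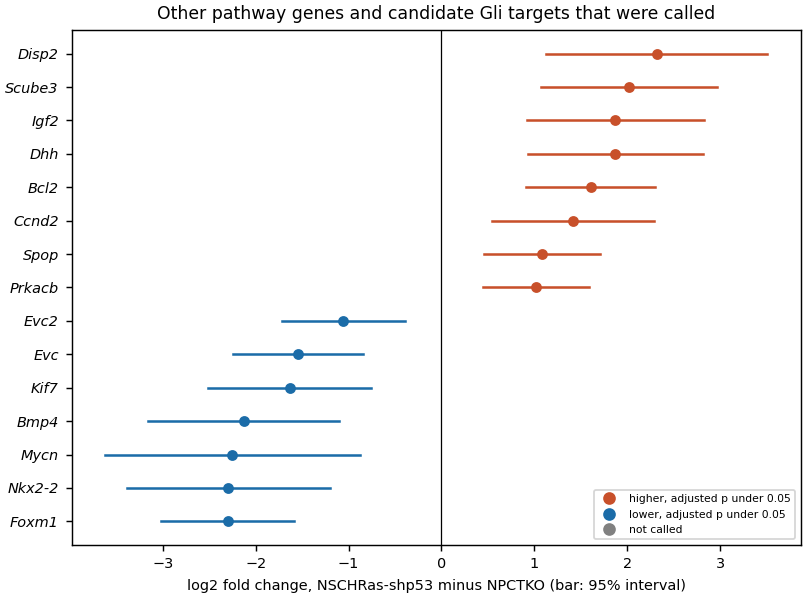
Log2 fold change (horizontal axis, NSCHRas-shp53 minus NPCTKO, edgeR) with its 95% interval for the 15 pathway genes and candidate GLI targets, other than the members, that were called. The 8 genes that were higher run from *Prkacb* (1.02) to *Disp2* (2.32), and the 7 that were lower from *Evc2* (−1.06) to *Foxm1* (−2.30).

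Together, the 5 lists held 61 genes tested, of which 8 (13.1%) were higher and 7 (11.5%) lower in NSCHRas-shp53, beside 7.77 and 5.28% of all genes. The lists were chosen with results of these data known, and the difference in share was not tested. These counts turned on single libraries. Leaving out NPCTKO 1, 2, 3 and 4 in turn gave 4, 4, 7 and 9 higher and 4, 4, 6 and 5 lower genes, and leaving out NSCHRas-shp53 1, 2 and 3 gave 3, 0 and 0 higher and 2, 2 and 1 lower genes. *Foxm1* was the gene that kept its call with each library left out.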

How the data were processed

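RNA was measured in 4 sorted NPCTKO and 3 unsorted NSCHRas-shp53 GBM samples, grouped by their titles. The labels name TRIZOL, poly(A) selection, a non-directional NEBNext kit and paired ends on a NovaSeq instrument, and the methods name RNAiso Plus. The authors trimmed reads with Cutadapt (version 1.16 in the submitters' processing notes) and mapped them to mm10 with TopHat 2.1.1. The raw counts per gene, as deposited by the authors, are not normalized, and the program that counted them is not stated in these sources. A gene wholly inside another gene can hold 0 counts in this table, and such genes were read from the FPKM values, which the authors made with Cufflinks 2.2.1 and deposited with 3767 rows that carry no name and were left out. A few counts of *Gli1* or *Shh* carry a wide counting error at these depths.

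The test of the counts was edgeR's quasi-likelihood test (edgeR 4.0.16, R 4.3.3) after filterByExpr and with TMM scaling, with Benjamini-Hochberg adjustment over all genes tested and a threshold of 0.05, as NSCHRas-shp53 minus NPCTKO. FPKM values were compared with limma 3.58.1 on log2(FPKM + 1), for genes of at least 1 FPKM in at least 3 libraries, so that fold changes of low genes are understated. Alternatives were DESeq2 1.42.0, other size factors, filters and pseudocounts, a replicate block, offsets for transcript GC content (known for 97.4% of the genes tested), and leaving out each library, NPCTKO 1 and 2, or NPCTKO 3 and 4. The edgeR step was tested on simulated data. The genes named are the 9 members, all ligands, the genes of each pathway list that were called (at most the 8 with the smallest p), and the 3 genes most like each of *Gli1*, *Ptch1* and *Hhip*. *Disp1*, *Cdon*, *Lrp2*, *Gpc3*, *Arl13b*, *Efcab7*, *Foxf1*, *Foxf2*, *Arhgap9* and *Gm6556* were named after their values were seen. The members and lists were chosen with earlier results of these data known. Some genes of the study or of the lists are not reported here.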

Additional observations from a re-analysis of the deposited data

Results flagged for a closer look

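*Ptch1* in NPCTKO 3 stood far from the other NPCTKO libraries, at 94.3 CPM against 54.2 to 58.3 CPM in NPCTKO 1, 2 and 4. Its gap to the nearest library was 0.896 of the range of the 4 libraries and passed Dixon's limit at the 95% level. Chance passes this limit in about 1 of 20 groups, and 9 genes were looked at. The next largest such share for a high library among the members was that of *Hhip* (0.565), also in NPCTKO 3, and it was under the limit. Without NPCTKO 3, the log2 fold change of *Ptch1* was −0.35 and was not called (edgeR adjusted p = 0.38, in a range of 0.14 to 0.59 over 20 alternatives).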

How the results depend on the processing

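Precision was limited by the number of libraries, by the depth for *Gli1*, and by the spread between NPCTKO libraries 1 and 2 and 3 and 4. Of the members, *Gli2*, *Ptch1* and *Hhip* kept their direction and stayed uncalled in all 20 alternatives, and *Gli1* kept its direction in all 18 that gave it a value. The numbers of genes higher and lower (1251 and 850), of members called (1) and of pathway genes higher and lower (8 and 7) changed as follows, and the cause was not tested where none is given. DESeq2 called 2024 higher and 1922 lower genes and 3 members. Without TMM factors, 540 genes were lower, 2 members were called, and 5 pathway genes were higher and 4 lower. In that fit, the log2 fold changes of single genes rose by a median of 0.20. Without a filter on low counts, 5 pathway genes were higher. With limma on log2(FPKM + 1), 2 members and 4 lower pathway genes were called, and with no filter on low FPKM 3 members and 4 lower pathway genes. Without NPCTKO 1 and 2, 4 members were called (*Gli1*, *Gli3*, *Boc* and *Gas1*). Without NPCTKO 3 and 4, 4638 genes were higher and 4313 lower, with 3 members, 20 higher and 13 lower pathway genes. GC content offsets gave 3 members and 4 lower pathway genes. Leaving out 1 library gave 415 to 1387 higher and 124 to 1208 lower genes, 0 to 2 members, and 0 to 9 higher and 1 to 6 lower pathway genes, the lowest number of higher genes being that without NSCHRas-shp53 3. Between libraries of the same replicate number, the correlations of deviations were 0.28, −0.19 and 0.19 for numbers 1, 2 and 3. So few values cannot decide if the numbers pair the libraries. With a replicate block, 718 genes were higher and 323 lower, 0 members were called (*Gli1* adjusted p = 0.12), and 2 pathway genes were higher and 2 lower. With the block and GC content offsets, 465 genes were lower, and 5 pathway genes were higher and 0 lower. There, the log2 fold changes of single genes rose by a median of 0.23. Fitted log2 fold changes near 0 turned sign. That of *Gas1* ran from −0.016 (without NPCTKO 4) to 0.52 (without NPCTKO 2) with 1 library left out, also below 0 without NPCTKO 3 (−0.0090), and was −0.34 without NPCTKO 3 and 4. That of *Sufu* was 0.038 with GC content offsets and 0.18 with the block as well, where that of *Smo* was 0.30. That of *Ihh* was −0.064 with limma without a filter and ran from −0.13 (without NPCTKO 3) to 0.38 (without NSCHRas-shp53 1) with 1 library left out, also below 0 without NPCTKO 2, NSCHRas-shp53 2 or NSCHRas-shp53 3.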
